A study of Mus musculus with 32 samples.

Results

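The transcripts described here encode the enzymes of the tricarboxylic acid (TCA) cycle, the reactions that fill and drain it, the transaminases and inner membrane carriers of the shuttles, and the transhydrogenase Nnt. They are 30 genes of the 24523 measured, and a probe was taken when the array design gave it the name of 1 of these genes and the deposited expression table also held it. That left 65 of the 70 probes the array carries for them, out of 37306 probes in all; 20 genes had more than 1 probe and 10 had 1. The rule that picks their probes uses gene names and no measured value, although the set was drawn up with earlier results of these data known. All 30 genes had at least 1 probe that passed the filter on dim spots.

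Brown adipose tissue RNA from 4 groups, 8 samples each, was read on 32 mouse arrays in 1 colour. The total ChREBP KO group lacks both isoforms encoded by Mlxipl, the ChREBPβ KO group lacks, through CRISPR/Cas9 editing, the exon specific to the β isoform, and each has the WT group of its own line (ChREBPtotal_WT and ChREBPbeta_WT in the labels). All 4 groups were fasted for 24 hours and then given food and water with 20% glucose for 18 hours. The study describes the array experiment as done in C57BL6/J males on the interscapular depot; both deletions are constitutive and not restricted to adipocytes, age was not given, and more than 1 edited line per strain was derived, without a statement of which was used here.

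The TCA cycle oxidises acetyl groups in mitochondria and hands the electrons to the respiratory chain, which in brown fat is uncoupled to release heat. Citrate and malate can leave the cycle for fatty acid synthesis in the cytosol, so pyruvate carboxylase and amino acid entry have to replace them. Aspartate, glutamate and 2-oxoglutarate carriers with the transaminases move reducing equivalents from cytosolic NADH into mitochondria, and Idh2 and Nnt supply mitochondrial NADPH.

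The arrays read these genes through 60-base probes. The probes shown lie inside the genes, away from the brightest probe of each, and are given because they carry a separate reading of the genes on which the results turn. Coordinates are those of mouse build mm9. Idh2 is at chr7:87242779-87242838 (minus strand), Glud1 at chr14:35151947-35152006 (plus), Slc25a22 at chr7:148617046-148617105 (minus), Slc25a12 at chr2:71113256-71113315 (minus) and Nnt at chr13:120193406-120193465 (minus).
Idh2: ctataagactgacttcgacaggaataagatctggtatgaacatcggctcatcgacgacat
Glud1: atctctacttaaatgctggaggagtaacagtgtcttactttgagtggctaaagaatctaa
Slc25a22: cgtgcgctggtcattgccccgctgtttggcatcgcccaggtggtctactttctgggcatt
Slc25a12: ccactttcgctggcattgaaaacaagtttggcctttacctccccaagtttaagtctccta
Nnt: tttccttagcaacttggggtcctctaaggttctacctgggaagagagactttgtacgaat

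ChREBP with its partner Mlx binds carbohydrate response elements, which join a pair of E-box-like motifs. The bases upstream of the start sites were therefore searched, 250 for each of the 36 windows that RefSeq (GRCm38.p6) gives for 27 members; Idh3a, Me2 and Nnt had no window. The E-box CACGTG, which reads the same on both strands, was found for 3 of 27 members (Ogdh, Pcx and Slc25a13) against 6.86% of the 27025 genes in the table, and the full carbohydrate response element consensus for 0 members against 0.111% of genes. A match is a string of letters and not a bound site. The E-box lay in 5 of the 36 windows. Ogdh and Pcx also have windows without it, as at chr11:6291347-6291596 and chr19:4594069-4594318. The windows of Ogdh (chr11:6291920-6292169, plus) and Pcx (chr19:4510222-4510471, plus), with the E-box in capitals, are printed beside those of Idh2 (chr7:80115351-80115600, minus) and Pck1 (chr2:173152823-173153072, plus), the members with the largest rises, which held neither motif.
Ogdh: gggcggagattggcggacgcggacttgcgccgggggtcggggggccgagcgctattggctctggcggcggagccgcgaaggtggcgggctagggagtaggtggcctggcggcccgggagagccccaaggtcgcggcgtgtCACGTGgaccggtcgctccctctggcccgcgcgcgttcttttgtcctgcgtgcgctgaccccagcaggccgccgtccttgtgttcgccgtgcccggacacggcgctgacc
Pcx: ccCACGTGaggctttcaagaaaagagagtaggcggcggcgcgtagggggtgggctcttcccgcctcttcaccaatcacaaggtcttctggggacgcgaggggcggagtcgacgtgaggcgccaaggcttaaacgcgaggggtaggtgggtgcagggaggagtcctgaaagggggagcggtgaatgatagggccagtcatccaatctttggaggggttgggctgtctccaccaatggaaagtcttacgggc
Idh2: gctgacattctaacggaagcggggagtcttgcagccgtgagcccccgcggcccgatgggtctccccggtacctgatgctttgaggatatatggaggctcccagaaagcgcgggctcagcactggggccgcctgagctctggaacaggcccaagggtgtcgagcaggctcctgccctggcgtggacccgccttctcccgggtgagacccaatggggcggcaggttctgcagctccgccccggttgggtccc
Pck1: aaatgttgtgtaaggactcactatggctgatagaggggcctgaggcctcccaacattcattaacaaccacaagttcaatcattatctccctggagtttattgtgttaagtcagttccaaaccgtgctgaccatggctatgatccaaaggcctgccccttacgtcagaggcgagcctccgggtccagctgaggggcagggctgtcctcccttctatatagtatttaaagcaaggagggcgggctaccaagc

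Values are log2 of the quantile normalised median intensity of a spot, and a difference of 1 on this scale is a doubling. Each gene is read from the brightest of its probes and counts as called at a limma adjusted p under 0.05 (Benjamini-Hochberg over all probes). Background was clearly exceeded by 64.4% to 71.1% of spots on an array, and no spot was saturated. The brightest of 3 Mlxipl probes stood at 0.180 of its WT level in total ChREBP KO and at 0.354 in ChREBPβ KO. Another stood at 0.587 and 0.455, also called lower in both, while the last differed by 0.14 and -0.08 on the log2 scale and was called in neither. The 8 brown adipocyte markers were well above background on every array, with Ucp1 between 18.22 and 18.62. In bulk tissue, fewer cells of a type and less RNA per cell cannot be told apart.

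The lines differed in transcripts of another tissue. The mean of 12 skeletal muscle markers lay between 12.80 and 16.15 in WT and between 14.32 and 15.83 in KO mice of the total line, but between 5.66 and 11.95 in WT and between 5.75 and 11.40 in KO mice of the ChREBPβ line. Summed over the list, intensity ran from 154000 to 1270000 and from 449000 to 1120000 in the total line, and from 768 to 101000 and from 851 to 69700 in the ChREBPβ line, where 7 and 8 of the 12 markers were still above background on every array of the WT and KO group. The lines thus did not overlap, and within a line the KO and WT groups differed by 0.03 and -0.70 (two-sided exact permutation test, p = 0.951 and 0.559). The mean of 10 liver markers ranged from 5.62 to 13.28 in the ChREBPβ line and from 5.60 to 11.17 in the total line. The liver list mean was higher in the ChREBPβ line by 2.01 between the WT groups and by 3.01 between the KO groups (two-sided exact permutation test, p = 0.142 and 0.028). All 6 macrophage markers were called lower in total ChREBP KO and none in ChREBPβ KO, with a summed intensity of 13900 to 26300 in WT and 9370 to 13500 in KO mice of the total line, and of 8620 to 18300 and 8200 to 16600 in the ChREBPβ line. Of the 8 brown adipocyte markers, 3 were called higher and 2 lower in total ChREBP KO. Between the WT groups (ChREBPβ line minus total line) all 6 macrophage markers were lower, 3 of 4 endothelial and 4 of 9 lymphocyte markers higher, and 3 brown adipocyte markers higher and 3 lower. In the same comparison 1 of 10 liver markers was higher, 1 of 4 white adipocyte markers higher and 2 lower, and 1 of 4 blood markers lower. Of all genes, 24.8% were called higher and 14.1% lower between the WT groups. In total ChREBP KO 22.9% of all genes were called higher and 21.1% lower, and 2.7% were called in ChREBPβ KO. The part of the markers in the changes below was not tested.

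What is lost with both isoforms was asked by setting total ChREBP KO against the WT mice of that line. Of 30 members 18 were called, 14 higher and 4 lower, where 44.1% of all genes were called, 22.9% higher and 21.1% lower. The median difference of the members was 0.14, against 0.01 for all genes. Most of the rises lay in the cycle itself. Of the 16 cycle enzymes, cytosolic forms included, 11 were called higher and none lower, while the 4 members called lower were pyruvate carboxylase, a transaminase and 2 carriers. Over all probes, 24 of 65 were called higher and 8 lower (43.2% of all probes on the array were called), and no member had probes called in opposite directions. A change of at least 1.5-fold was called for 3 members, all higher (4.84% of all genes were that much higher).

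**Figure D1:**
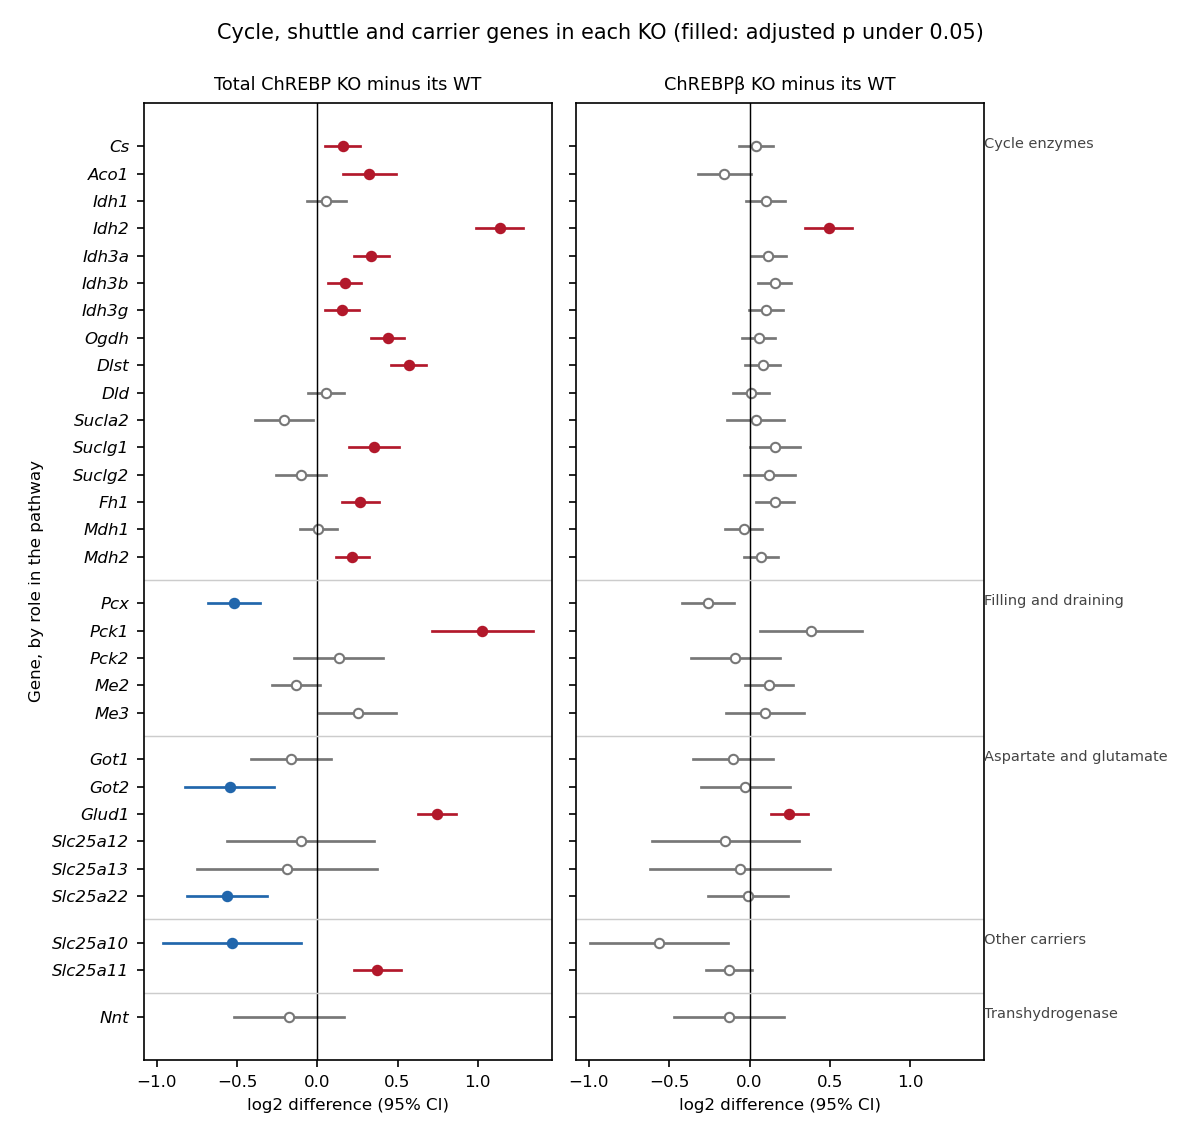
Difference in log2 intensity between KO and WT mice for the 30 genes, in total ChREBP KO (left) and ChREBPβ KO (right), by role in the pathway. Points are fitted differences of 8 against 8 arrays, lines 95% confidence intervals, filled points limma adjusted p under 0.05 (red higher, blue lower). In total ChREBP KO most cycle enzymes lie right of 0 and Idh2 furthest, at 1.14, while Idh2 and Glud1 are the filled points in ChREBPβ KO.

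Idh2, the mitochondrial NADP-linked isocitrate dehydrogenase, had the largest rise of the 30. Its brightest probe (chr7:87239736-87239795, mm9) ranged from 14.75 to 15.22 with a median of 14.86 in total-line WT mice, and from 15.89 to 16.23 with a median of 16.03 in mice without both isoforms. Among ChREBPβ-line mice it ranged from 14.64 to 15.26 (median 14.94) in WT and from 15.35 to 15.62 (median 15.43) in KO mice. No KO array overlapped the WT arrays of its own line. The difference was 1.14 ± 0.07 (SE), or 2.20-fold, with both isoforms deleted (limma adjusted p 2.06e-14) and at least 0.93 within each of the 4 wash batches. Some batches held only 1 array of a group, as for total ChREBP KO in batch 2 and ChREBPβ KO in batch 4. The probe printed above gave 1.25 ± 0.10 (limma adjusted p 2.02e-12). Idh1, the cytosolic enzyme of the same reaction, differed by 0.06 (limma adjusted p 0.472).

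The subunits of the NAD-linked isocitrate dehydrogenase were called higher by smaller amounts: Idh3a, the catalytic subunit, by 0.34 ± 0.05 (SE) with no overlap between the groups, Idh3b by 0.17 and Idh3g by 0.15. Idh3b and Idh3g lost their calls when arrays were scaled to their 75th percentile in place of quantile normalisation and with slide as a fixed block, at limma adjusted p of up to 0.197 and 0.433.

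The 2-oxoglutarate dehydrogenase complex rose in its own components. Dlst, its succinyltransferase core, ranged from 15.88 to 16.30 (median 16.10) in WT and from 16.50 to 16.77 (median 16.65) in total ChREBP KO, and Ogdh, its decarboxylating subunit, from 16.46 to 16.78 (median 16.73) and from 16.99 to 17.19 (median 17.12). Neither overlapped. The differences were 0.57 ± 0.05 for Dlst (limma adjusted p 2.48e-10) and 0.44 ± 0.05 for Ogdh (limma adjusted p 1.3e-08), and a further probe of each gave 0.51 and 0.46. Dld, the lipoamide dehydrogenase that this complex shares with pyruvate dehydrogenase, differed by 0.05 (limma adjusted p 0.469).

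Among the remaining cycle enzymes Suclg1, the common subunit of succinyl-CoA ligase, was higher by 0.35, Aco1, the cytosolic aconitase, by 0.33, Fh1, fumarase, by 0.27, Mdh2, the mitochondrial malate dehydrogenase, by 0.22 and Cs, citrate synthase, by 0.16. These 5 changes were 1.12- to 1.28-fold. Another Cs probe gave 0.37 (limma adjusted p 5.33e-06). Mdh1, the cytosolic malate dehydrogenase, differed by 0.01, with a 95% interval from -0.11 to 0.12. The partner subunits Sucla2 and Suclg2 differed by -0.21 and -0.10, at limma adjusted p of 0.0547 and 0.297. With slide as a fixed block the calls of Cs and Mdh2 were lost, at limma adjusted p 0.137 and 0.112.

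The Sucla2 probes disagreed, which was noticed only when the values were seen. A dim probe (chr14:73956575-73956634), which matched no RefSeq transcript and carries the name of an Ensembl one, was at 6.54 ± 0.21 (SD, n = 8) in WT and 8.07 in total ChREBP KO. The difference was 1.53 ± 0.12 (SE, limma adjusted p 1.85e-12) in 8 of 8 KO arrays, with no overlap. The brightest probe, at chr14:73995798-73995857, went the other way without reaching the threshold. It was called lower in the deposited table, under both scalings to the 75th percentile, with own groups only and with the muscle and liver covariates. Leaving out any 1 of 5 arrays also gave that call.

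The enzymes that fill and drain the cycle moved in opposite directions. Pck1, the cytosolic phosphoenolpyruvate carboxykinase that takes oxaloacetate towards glycerol phosphate, ranged from 15.53 to 16.49 (median 15.99) in WT and from 16.92 to 17.13 (median 17.00) in total ChREBP KO. Pcx, the pyruvate carboxylase that makes oxaloacetate, ranged from 15.80 to 16.18 (median 15.91) in WT and from 15.18 to 15.73 (median 15.44) in total ChREBP KO. Every KO array lay above every WT array for Pck1 and below every WT array for Pcx. Pck1 rose by 1.03 ± 0.16 (SE), or 2.04-fold (limma adjusted p 2.11e-06, 0.69 to 1.41 within wash batches), and Pcx fell by 0.52 ± 0.08 (limma adjusted p 2.61e-06, -0.64 to -0.44 within wash batches). The mitochondrial carboxykinase Pck2 (0.13) and the mitochondrial malic enzymes Me2 (-0.13) and Me3 (0.25) did not pass the test, at limma adjusted p between 0.0864 and 0.463. Me3 was called once WT replicate 2 of the ChREBPβ line was left out, and a dim Pck2 probe fell by 0.35 (limma adjusted p 0.000607).

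**Figure D2:**
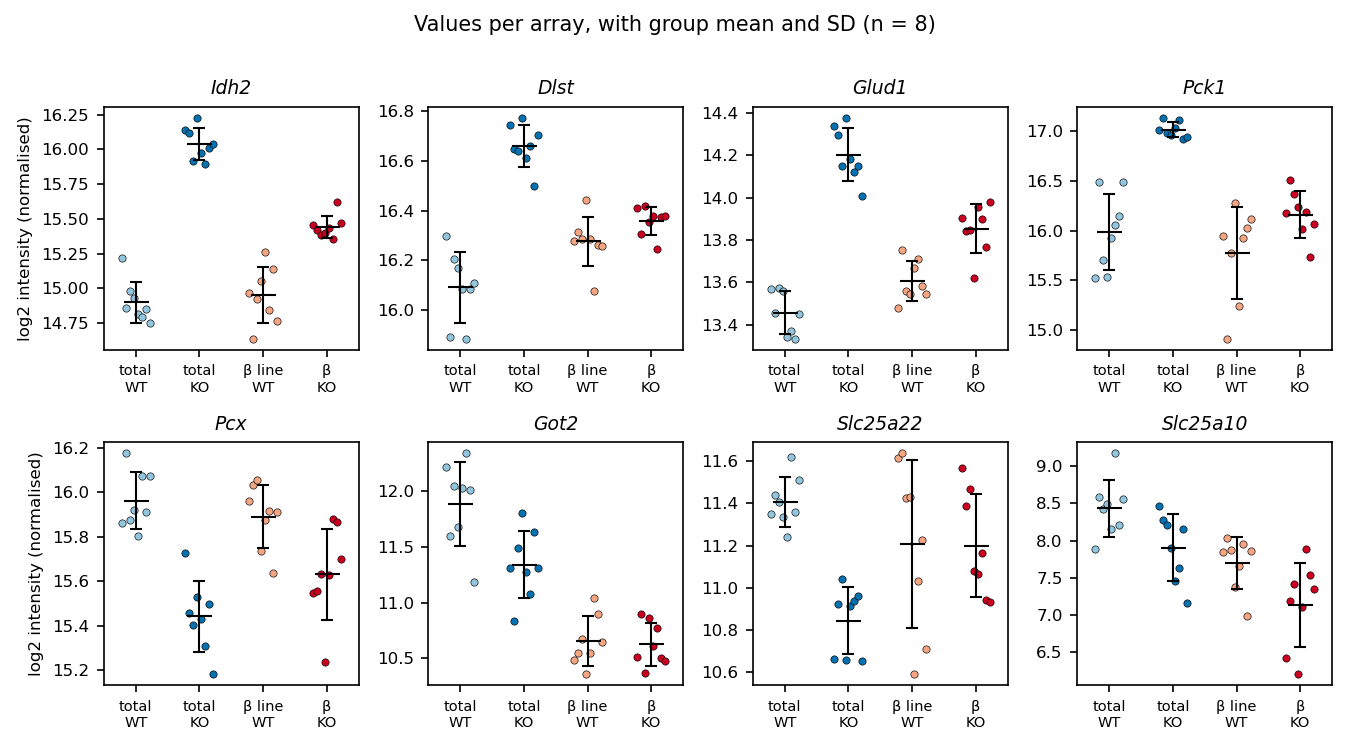
Log2 intensity of 8 genes on each array in the 4 groups, with the group mean and SD (n = 8); each vertical axis has its own range and does not start at 0. Idh2, Dlst, Glud1 and Pck1 are higher on every total ChREBP KO array than on any WT array of that line, and Pcx and Slc25a22 are lower on every one.

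The enzymes and carriers of glutamate and aspartate split. Glud1, glutamate dehydrogenase, which passes glutamate carbon into 2-oxoglutarate, ranged from 13.33 to 13.57 (median 13.46) in WT and from 14.01 to 14.38 (median 14.17) in total ChREBP KO. Slc25a22, a mitochondrial glutamate carrier, ranged from 11.24 to 11.62 (median 11.38) in WT and from 10.66 to 11.04 (median 10.92) in total ChREBP KO. Got2, the mitochondrial aspartate aminotransferase, ranged from 11.18 to 12.34 (median 12.02) in WT and from 10.83 to 11.80 (median 11.31) in total ChREBP KO. Glud1 and Slc25a22 did not overlap between the groups, in opposite directions, while the Got2 groups did.

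Glud1 rose by 0.75 ± 0.06 (SE), or 1.68-fold (limma adjusted p 2.03e-12), with 0.62 to 0.83 within wash batches. Its other probes gave 0.68, for the one printed above, and 0.18 (limma adjusted p 1.09e-09 and 0.00383). Slc25a22 fell by 0.56 ± 0.12 (limma adjusted p 0.000309), and its other probes, which overlap each other in sequence, fell by 0.39 and 0.46. Got2 fell by 0.55 ± 0.14 (limma adjusted p 0.00151) and by 0.54 with the muscle and liver list means of each array as covariates. Got1, the cytosolic aminotransferase, and Slc25a12 and Slc25a13, the aspartate-glutamate carriers of the malate-aspartate shuttle, differed by -0.17, -0.10 and -0.19, with limma adjusted p of 0.289, 0.751 and 0.619.

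The other carriers also went opposite ways. Slc25a11, which exchanges 2-oxoglutarate for malate, was higher by 0.37 ± 0.07 (SE, limma adjusted p 6.5e-05) without overlap of the groups, and its other probe gave 0.39. Slc25a10, which exchanges malate and succinate for phosphate, ranged from 7.89 to 9.17 (median 8.46) in WT and from 7.15 to 8.46 (median 8.03) in total ChREBP KO, a difference of -0.53 ± 0.21 (limma adjusted p 0.0415). That call was lost without any 1 of WT replicates 2, 3, 4, 6 and 8 or KO replicates 4, 5, 6 and 8 of the line, and with slide as a fixed block the difference was -0.21 (limma adjusted p 0.562). Nnt, the transhydrogenase, differed by -0.18 (limma adjusted p 0.423).

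Loss of the β isoform alone was read from ChREBPβ KO mice against their own WT group. The study reports more mRNA and protein of ChREBPα, the other isoform, in brown fat of such males. The part of that rise in the differences below was not tested, so they are not the share of the β isoform by itself. Of the 30 members 2 were called, both higher, where 2.7% of all genes were called, 1.37% higher and 1.33% lower. They were Idh2 and Glud1. The median difference was 0.05, against 0.00 for all genes. Idh2 rose by 0.49 ± 0.07 (SE), or 1.41-fold (limma adjusted p 9.02e-05), with 0.37 to 0.79 within wash batches, and its other probe gave 0.51 ± 0.10 (limma adjusted p 0.00204). Glud1 ranged from 13.48 to 13.75 (median 13.57) in WT and from 13.62 to 13.98 (median 13.87) in ChREBPβ KO, overlapping groups that differed by 0.25 ± 0.06 (limma adjusted p 0.0119). Within wash batches its difference was 0.01 to 0.32, and its other probes gave 0.17 and 0.01, neither called. The Glud1 call was lost with the processed signal scaled to the 75th percentile, with slide as a fixed block and without the arrays with a liver list mean above 10, at limma adjusted p of up to 0.315.

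The other 16 members called in total ChREBP KO did not pass the test here. Pck1 ranged from 14.91 to 16.27 (median 15.94) in WT and from 15.74 to 16.51 (median 16.18) in ChREBPβ KO, a difference of 0.38 with a 95% interval from 0.07 to 0.70 (limma adjusted p 0.225). Pcx differed by -0.26 (interval -0.42 to -0.10, limma adjusted p 0.0776) in 8 of 8 KO arrays; it was called in the deposited table, under both 75th percentile scalings and without WT replicate 7, KO replicate 6 or KO replicate 7. Slc25a10 differed by -0.56 (interval -0.99 to -0.13, limma adjusted p 0.175), and from -1.72 to 0.34 between wash batches. For Dlst the interval was -0.03 to 0.19 and for Ogdh -0.05 to 0.16. Slc25a22 and Got2 differed by -0.01 and -0.03. Fh1, at 0.16, was called without KO replicate 4. Without the 9 arrays of the line whose muscle list mean was under 9, the Idh2 difference was 0.47 at limma adjusted p 0.0881, against 0.49 with every array. That left fewer than 8 arrays in each group of the line, so smaller groups and muscle content cannot be told apart. The arrays left in each group are not counted here. In that setting 0 members were called, and 55 of all genes, against 662 with every array.

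The difference between the KO effects was tested as an interaction. It was called for 10 of 30 members, 2 higher and 8 lower, where 25.2% of all genes were called, 12.2% higher and 13% lower. The effect in ChREBPβ KO minus that in total ChREBP KO was -0.65 ± 0.10 (SE, limma adjusted p 1.31e-05) for Idh2, -0.50 for both Slc25a11 and Glud1, -0.49 for Dlst, -0.48 for Aco1, -0.38 for Ogdh and -0.22 for Idh3a, all of them higher in total ChREBP KO. For Pck1 it was -0.64 ± 0.22 (limma adjusted p 0.0308). For Slc25a22 and Got2, which fell in total ChREBP KO, it was 0.55 and 0.52 (limma adjusted p 0.0171 and 0.048). The Got2 call was lost without any 1 of 20 of the 32 arrays and under 6 of the other alternatives, at limma adjusted p of up to 0.267. The Pck1 call was lost without WT replicates 1 or 4 of the total line, or WT replicates 4 or 8 or KO replicate 7 of the ChREBPβ line, and the Idh3a call without ChREBPβ KO replicate 2. The Idh3a call was also lost under 5 of the other alternatives (limma adjusted p of up to 0.366) and those of Pck1 and Ogdh under both scalings to the 75th percentile (up to 0.142 and 0.0735). Without the low-muscle arrays the calls of Aco1 and Slc25a22 were lost too, the latter also with slide as a fixed block (up to 0.0689 and 0.128), while those of Idh2, Dlst, Slc25a11 and Glud1 held under every alternative at the threshold of 0.05.

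Neighbouring steps of the pathway were read from a list of 23 further genes, all measured. In total ChREBP KO 8 were called higher and 11 lower, where 44.1% of all genes were called in either direction. The 4 subunits of succinate dehydrogenase, which stands in the cycle between succinate and fumarate, were called higher, by 0.14 (Sdha) to 0.45 (Sdhb). Transcripts of pyruvate entry fell: Pdha1 by 0.99, Pdhb by 0.80, Dlat by 0.65 and Pdhx by 0.31, all of the pyruvate dehydrogenase complex, and Mpc1 by 0.81 and Mpc2 by 0.72, the pyruvate carrier. Citrate export and cytosolic malate use fell most, with Slc25a1, the citrate carrier, at -2.42 and Me1, the cytosolic malic enzyme, at -2.56. The glycerol phosphate shuttle enzymes fell as well, with Gpd1 at -0.52 and the mitochondrial Gpd2 at -1.74, while Gpt, an alanine aminotransferase, was higher by 1.41. In ChREBPβ KO 3 of the 23 were called (2.7% of all genes), all lower, Slc25a1 by 0.71 (limma adjusted p 0.00204), Pdhx by 0.29 and Mpc2 by 0.24.

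The comparison between the lines asked how far the same genes differ before any deletion. Between the WT groups (ChREBPβ line minus total line) 16 of 30 members were called, 7 higher and 9 lower, where 38.9% of all genes were called, 24.8% higher and 14.1% lower. The WT groups are also the controls of the KO comparisons above, so the comparisons share arrays. At least 1.5-fold lower were 5 members, Slc25a12, Nnt, Got2, Slc25a10 and Got1, against 4.82% of all genes, and none was that much higher. Over all probes 17 were higher and 17 lower (39.2% of all probes were called), with 1 gene, Glud1, called both ways by different probes. Between the KO groups 24 members were called, 6 higher and 18 lower, where 50.2% of all genes were called, 28.2% higher and 21.9% lower. In that comparison 6 members were at least 1.5-fold lower, against 6.45% of all genes. Slc25a13 was the 1 member that much higher, by 0.79 (limma adjusted p 0.017). Its call was lost with the muscle and liver covariates, without the arrays with a liver list mean above 10 and without ChREBPβ KO replicate 5. It was also lost with the median intensity scaled to the 75th percentile. Its brightest probe was not among those well above background on all arrays. The share of all genes at least 1.5-fold higher is not given for either comparison between the lines.

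**Figure D3:**
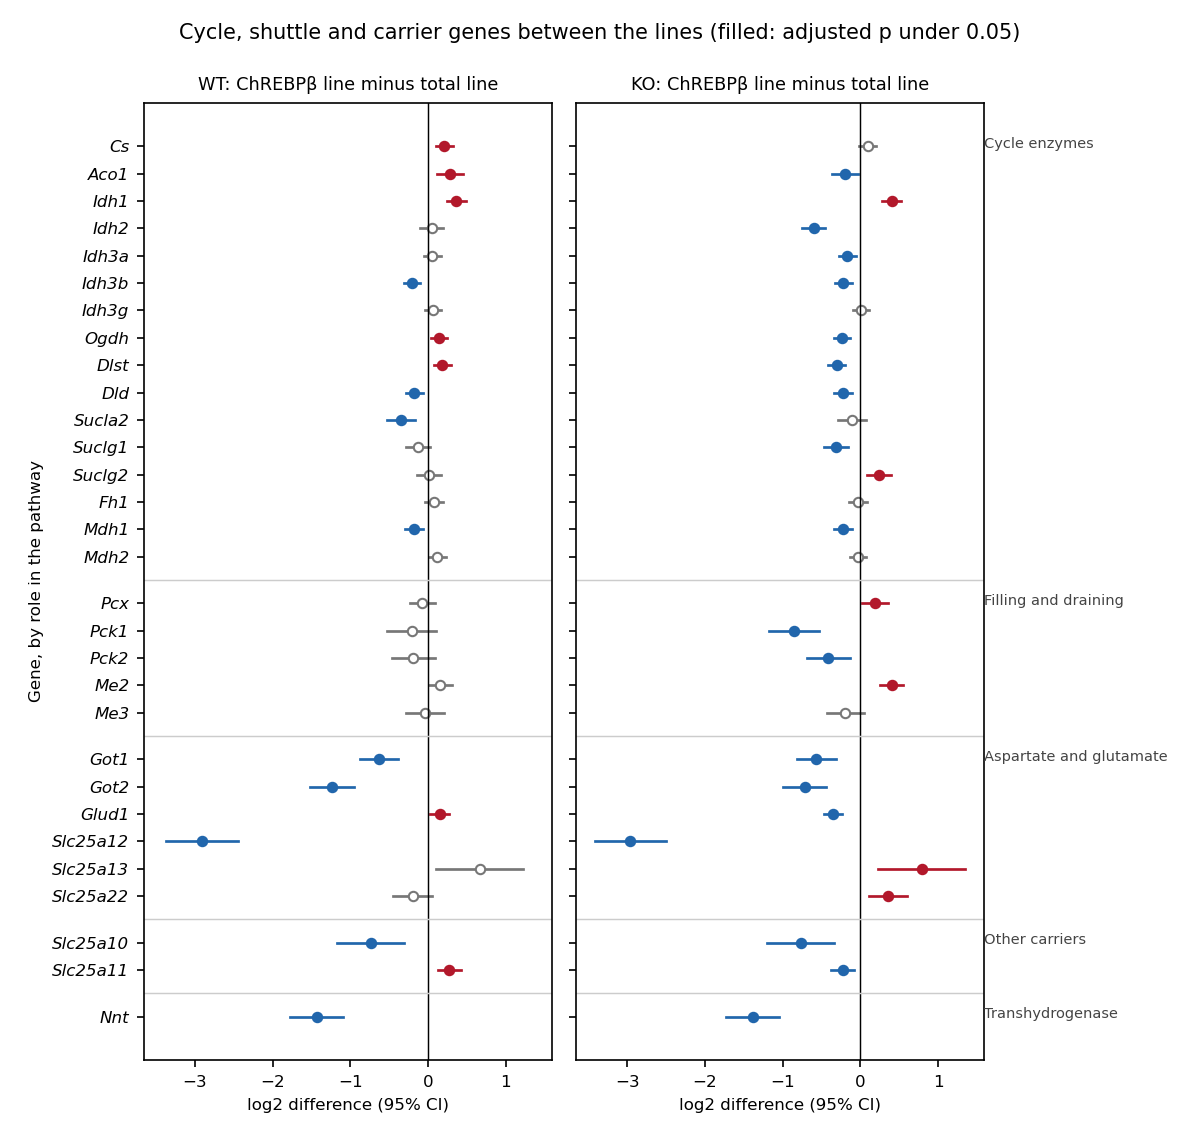
Difference in log2 intensity between the ChREBPβ line and the total line for the 30 genes, in WT mice (left) and in KO mice (right), by role in the pathway. Points are fitted differences of 8 against 8 arrays, lines 95% confidence intervals, filled points limma adjusted p under 0.05 (red higher, blue lower). Slc25a12, at -2.91 and -2.96, and Nnt, at -1.43 and -1.38, lie furthest to the left in both panels.

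C57BL/6J mice are known for an internal deletion in Nnt that other substrains lack, so the gene was examined by probe. The brighter probe (chr13:120124335-120124394, minus strand, mm9) ranged from 8.25 to 9.87 (median 9.04) in total-line WT mice and from 8.41 to 9.53 (median 8.83) in total ChREBP KO. It ranged from 7.47 to 7.75 (median 7.67) in ChREBPβ-line WT mice and from 7.33 to 7.67 (median 7.50) in ChREBPβ KO. The lines did not overlap, with the 16 arrays of the ChREBPβ line all below those of the total line and less spread. The difference was -1.43 ± 0.17 (SE, limma adjusted p 4.96e-08) between the WT groups and -1.38 between the KO groups, each with p = 0.000155 by an exact permutation test over 12870 splits (two-sided), the smallest it can give. Within wash batches the difference between WT groups lay between -1.89 and -0.98.

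The other Nnt probe, printed above, was at 4.90 to 4.98 on average in the 4 groups, near the floor of the arrays, and was well above background on 7, 6, 7 and 8 of 8 arrays (total-line WT, total ChREBP KO, ChREBPβ-line WT and ChREBPβ KO). It differed by -0.08 between the WT groups and -0.03 between the KO groups (exact permutation p = 0.442 and 0.702). Whether either probe lies in or outside the deleted stretch was not determined, so that neither checks the allele.

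Slc25a12, the aspartate-glutamate carrier known for its level in muscle, brain and heart, ranged from 9.55 to 11.56 (median 11.33) in total-line WT mice and from 7.65 to 8.76 (median 7.85) in ChREBPβ-line WT mice. The difference was -2.91 ± 0.23 (SE, limma adjusted p 2.5e-11), with no overlap, and 4 further probes gave -2.62, -1.76, -1.20 and -0.27. Got2 ranged from 11.18 to 12.34 in total-line and from 10.36 to 11.04 (median 10.60) in ChREBPβ-line WT mice and differed by -1.24 ± 0.14 (limma adjusted p 1.68e-08), again without overlap. Got1 ranged from 12.70 to 13.46 (median 13.24) and from 12.09 to 13.00 (median 12.58), overlapping, and differed by -0.63 ± 0.12 (limma adjusted p 0.00012). A further pair of Got1 probes, which share sequence, gave -0.79 and -0.84. Slc25a10 ranged from 7.89 to 9.17 and from 6.99 to 8.03 (median 7.85), overlapping, and differed by -0.74 ± 0.21 (limma adjusted p 0.006). Within wash batches these 4 genes were lower in the ChREBPβ line in 4 of 4 batches, of which batches 1 and 3 held only 1 ChREBPβ-line WT array each.

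**Figure D4:**
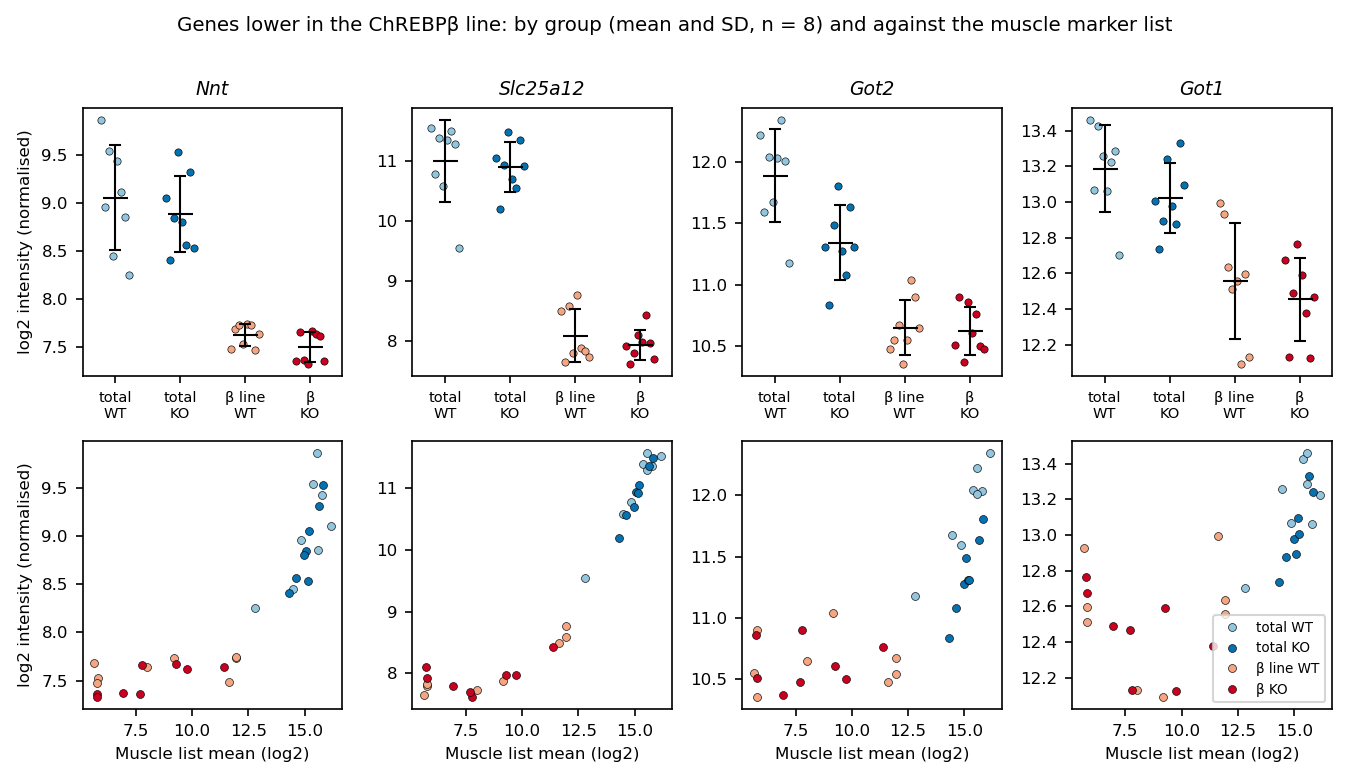
Log2 intensity of Nnt, Slc25a12, Got2 and Got1 on each array, by group with the mean and SD (n = 8, upper row) and against the mean log2 intensity of 12 skeletal muscle markers on the same array (lower row); vertical axes do not start at 0. The lines do not overlap in the muscle list mean, and Slc25a12 follows it within the total line, with r = 0.98 in WT and 0.99 in KO mice.

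The skeletal muscle markers moved with these genes between the lines, all 12 being called lower in ChREBPβ-line WT mice, with a difference of -6.33 in the list mean. Relations with the list mean were therefore computed within each group, for 5 genes in 4 groups (20 relations, exact permutation tests over 8 arrays, Benjamini-Hochberg adjusted). Pearson's r for Slc25a12 was 0.98 in total-line WT mice (p = 0.000942, adjusted 0.00476, Spearman's rho 0.74, p = 0.0458, adjusted 0.0916) and 0.99 in total ChREBP KO (p = 4.96e-05, adjusted 0.000992, rho 0.98, p = 0.000397, adjusted 0.00794). In the ChREBPβ line it was 0.91 in WT (p = 0.0036, adjusted 0.0103, rho 0.90, p = 0.00456, adjusted 0.0228) and 0.49 in KO mice (p = 0.218, adjusted 0.335, rho 0.24, p = 0.582, adjusted 0.887). Without the 2 arrays farthest from the median of the list mean, r was 0.82, 0.97, 0.84 and -0.33.

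Nnt followed the list in total ChREBP KO with r = 0.91 (exact permutation p = 0.00218, adjusted 0.00727, rho 0.86, p = 0.0107, adjusted 0.0428, 0.80 without 2 arrays). In total-line WT mice r was 0.74 (p = 0.0272, adjusted 0.0604, rho 0.55, p = 0.171, adjusted 0.285, exact permutation) and rested on the 2 farthest arrays, without which it was 0.14. In the ChREBPβ line r was 0.40 in WT (p = 0.3, adjusted 0.429, rho 0.60, p = 0.132, adjusted 0.24) and 0.79 in KO mice (p = 0.0334, adjusted 0.0668, rho 0.74, p = 0.0458, adjusted 0.0916, exact permutation). Got2 followed it in the total line, with r of 0.95 in WT and 0.96 in KO mice (exact permutation p = 0.00104 and 0.000645, each adjusted to 0.00476; rho 0.79 and 0.90, adjusted p 0.0916 and 0.0228), but stood at -0.03 and 0.09 in the ChREBPβ line (p = 0.947 and 0.831). Without the 2 farthest arrays its r in the total line was 0.90 and 0.89.

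Got1 followed the list in total ChREBP KO, with r = 0.94 (exact permutation p = 0.00119, adjusted 0.00476, rho 0.93, p = 0.00223, adjusted 0.0223, and 0.90 without 2 arrays). In the other groups its r was 0.72, 0.07 and -0.56 (total-line WT, ChREBPβ-line WT and ChREBPβ KO), with adjusted p from 0.104 to 0.973. Slc25a10 had r = 0.83 in ChREBPβ KO (exact permutation p = 0.01, adjusted 0.025, rho 0.76, p = 0.0368, adjusted 0.0916, and 0.69 without 2 arrays) and between -0.04 and 0.41 elsewhere.

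The arrays of the lines that came closest in muscle list mean were WT replicate 8 of the total line, at 12.80, and WT replicate 5 of the ChREBPβ line, at 11.95. Nnt was at 8.25 and 7.75 on them, Slc25a12 at 9.55 and 8.76, Got2 at 11.18 and 10.55 and Got1 at 12.70 and 12.56. With the muscle and liver list means as covariates, the calls between the WT groups fell from 16 to 4. Among all genes they fell from 9539 to 3551. The 4 members were Slc25a12 at -1.70 (limma adjusted p 0.000182), Got2 at -0.997 (limma adjusted p 0.00382), Nnt at -0.995 (limma adjusted p 0.0121) and Idh1 at 0.36 (limma adjusted p 0.019). Got1 (-0.52, limma adjusted p 0.0879) and Slc25a10 (-0.15, limma adjusted p 0.825) were not called. As the lines share no range of the list mean, such a fit carries each line's values beyond those measured, and line and muscle transcripts cannot be told apart.

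Of the 7 members called higher in ChREBPβ-line WT mice, Idh1 differed most, by 0.36 ± 0.06 (SE, limma adjusted p 1.59e-05), followed by Aco1 and Slc25a11 by 0.28, Cs by 0.21, Dlst by 0.18, Glud1 by 0.15 and Ogdh by 0.14. Sucla2 was at -0.35, Idh3b at -0.20, and Dld and Mdh1 at -0.18. The brightest Idh2 probe differed by 0.05 (limma adjusted p 0.632) and Pcx by -0.07 (limma adjusted p 0.508). Slc25a13, the aspartate-glutamate carrier known from liver, differed by 0.66 (limma adjusted p 0.0543), with a range of 5.28 to 5.67 in total-line and 5.24 to 7.67 in ChREBPβ-line WT mice; 4 of these 8 ChREBPβ-line arrays had a liver list mean above 10. The Ogdh call was lost without WT replicate 2 or 6 of the total line, and the Glud1 call without any 1 of WT replicates 2, 5, 6, 7 and 8 of the total line or 2, 5 and 6 of the ChREBPβ line.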

How the data were processed

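RNA of 32 brown adipose tissue samples was measured on Agilent 8x60K mouse arrays in 1 colour. The authors deposited scanner output of Agilent Feature Extraction 10.10.1.1, in which a spot has a median intensity that is not normalised between arrays. The authors also deposited a table of quantile normalised log2 values. Following the study's methods, a non-control spot was kept (39985 of 59305) if the scanner found it, with signal above 0 and clear of background, on 26 or more arrays, or on 6 or more of 1 group. The log2 median intensities were quantile normalised, and repeated spots of a probe were replaced by their median. The mean absolute difference from the deposited log2 values was 0.00298.

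Groups were taken from the labels. Each probe was fitted with limma 3.58.1 (R 4.3.3; lmFit and eBayes) to the 4 group means of the 32 arrays, without covariates, with Benjamini-Hochberg adjustment over 37306 probes per contrast. The procedure was tested on simulated data. Replicate numbers were not taken to pair the samples: deviations of same-numbered samples correlated above 0.1 in 6 of 16 pairs, 6 of 8 in the ChREBPβ line and 0 of 8 in the total line. The study counts its samples as animals, but no source ties an array to an animal or litter. Probe names and coordinates (mm9) are those of the array design, and 46 of the 65 probes matched a RefSeq accession in the GRCm38.p6 gene table, used for names only. Arrays have no read depth, and their number limits the precision.

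All 30 genes are named. Those called at 1.5-fold or more in a KO against its WT or between the WT groups, and Nnt, are given with the lowest, median and highest array. Members called at 1.5-fold between the KO groups are not all given in that way. The members, the further pathway genes and the marker lists were chosen with earlier results of these data known. Of the marker lists (brown adipocyte, skeletal muscle, liver, white adipocyte, lymphocyte, macrophage, blood and endothelium), those with the widest differences between groups are given in ranges and others in counts. The value of 1 of the further pathway genes is not reported here. The alternatives were other signal columns and scalings, normexp background correction, the deposited table, other filters, wash batch, slide or replicate number as a block, muscle and liver covariates, own groups only, a stricter threshold, the mean of a gene's probes and leaving out each array. Leaving out arrays by their liver or muscle list mean was added after seeing the data. Both left fewer than 8 arrays in each ChREBPβ-line group, so the settings also have smaller groups. The arrays left are not counted here.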

Additional observations from a re-analysis of the deposited data

Results flagged for a closer look

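Of 120 groups of 8 arrays (30 genes in 4 groups), 6 held an array far from the rest by Dixon's test, and chance flags about 1 in 20. In ChREBPβ KO these were Idh2 on replicate 7 (15.62, group median 15.43) and, on replicate 4, Ogdh (16.64, median 16.90) and Fh1 (15.21, median 15.57). In ChREBPβ-line WT mice they were Idh3g on replicate 6 (16.81, median 16.63), Me3 on replicate 2 (11.21, median 12.11) and Pck2 on replicate 8 (10.85, median 10.34).

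The KO effects differed between the lines for 10 genes by the interaction in limma. The effect in ChREBPβ KO minus that in total ChREBP KO was -0.65 for Idh2, -0.64 for Pck1, -0.50 for Slc25a11, -0.50 for Glud1, -0.49 for Dlst, -0.48 for Aco1, -0.38 for Ogdh and -0.22 for Idh3a, and 0.55 for Slc25a22 and 0.52 for Got2.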

How the results depend on the processing

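The number of called genes in total ChREBP KO stayed within 1.5 times of 18 under every alternative. Of 2 in ChREBPβ KO, 1 remained with slide as a fixed block, at adjusted p under 0.01 and without arrays with a liver list mean above 10, and 0 without ChREBPβ-line arrays with a muscle list mean under 9. Among all genes 662 calls became 110, 285, 211 and 55 in these settings. The difference between KO effects had 6 in place of 10 at adjusted p under 0.01 and without those low-muscle arrays. All genes had 3773 and 3382 in place of 6181. Between WT groups 16 became 4 with muscle and liver covariates, and among all genes 9539 became 3551. Between KO groups 24 became 15 with 75th percentile scaling of the median intensity, 12 with the covariates and 15 without the high-liver arrays. Among all genes 12300 became 12041, 6647 and 9854 in the same order. The cause was not tested. Leaving out 1 array gave 17 to 19 calls in total ChREBP KO, 2 to 3 in ChREBPβ KO, 8 to 10 for the difference, 14 to 18 between WT and 21 to 24 between KO groups, and -1.55 to -1.32 for Nnt between WT groups, which was -0.756 with both its probes averaged.

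With the replicate block the counts were 19, 2, 11, 16 and 23 in the same order, and Nnt stayed at -1.43. For the difference Got2 was lost and Suclg1 and Suclg2 were gained. The numbers are not known to pair samples. This block gave a number the same effect in both lines, so it could not show whether pairing within a line matters. Such pairing was not tested. Among values called in either setting, signs turned for 5; differences called in neither setting also changed sign. When all probes of a gene were averaged, Sucla2 was 0.66 in total ChREBP KO and -0.53 for the difference, Me3 was 0.19 between WT groups and Aco1 was 0.085 between KO groups, where probes of a gene disagree. With the covariates Slc25a13 was -0.056 between KO groups. No scaling moved the median of all genes by more than 0.1. The alternative with probes well above background on all arrays held 27 of the 30 genes and gave no value for Nnt, Me2 or Slc25a13.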
